A study of Arabidopsis thaliana with 18 samples.

Results

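The core low oxygen response genes are 10 genes that Arabidopsis thaliana raises when oxygen runs short, out of 33602 genes in each of the 3 comparison tables of the study. They are HRA1 (AT3G10040), LBD41 (AT3G02550), PCO1 (AT5G15120), PCO2 (AT5G39890), ADH1 (AT1G77120), PDC1 (AT4G33070), SUS4 (AT3G43190), HB1 (AT2G16060), AT4G10270 and AT4G10265, and they were picked by identifier with their values in these tables already known. Their own values are therefore a description and support nothing by themselves. RNA was sequenced from seeds of 2 complemented genotypes. Seeds called ΔDS carried a copy of the complementing gene from which the DS segment was deleted, and seeds called +WT carried the intact copy. As known from the study, the complementing gene is FLOE1 (AT4G28300), and both copies were placed in a mutant that lacks it, so that both genotypes share that background. ΔDS and +WT seeds were each taken dry, imbibed, or imbibed on salt. Imbibed seeds were held cold (4 °C) and dark for 5 days on medium with 0 mM NaCl and were then lit for 4 hours at 22 °C, and salt seeds had the same schedule on 220 mM NaCl. There were 3 replicates in each of the 6 groups, 18 samples in all. The labels do not give the promoter, the number of transgenic lines or the age of the seed, and the extraction protocol names siliques beside seeds. Whether replicates are seed of separate mother plants is not stated either, so p-values measure only the spread between these samples, which may be technical.

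Plant cells sense oxygen through group VII ethylene response factors such as RAP2.12. PCO enzymes use oxygen to oxidise the N-terminal cysteine of these factors, which marks them for destruction through the N-degron pathway. When oxygen is short the factors persist and raise genes of fermentation, sucrose use, haemoglobin and feedback control, among them PCO1, PCO2 and HRA1 themselves. Seeds are a tissue in which this matters, because the seed coat and dense packed cells slow the entry of oxygen while respiration restarts after water uptake.

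The files gave 1 comparison of ΔDS with +WT seeds per seed state, with no value per library. Each row held the mean normalised count over 6 libraries, a log2 fold change with its standard error (SE) and an adjusted p. The sums of these means were 26367661 (dry), 24526188 (imbibed) and 26080227 (salt), and library totals are not given. The headers do not state the direction of the fold change. It was read as ΔDS over +WT, and if it ran the other way every sign and every pair of group levels below would turn. The transcript of FLOE1 itself had implied means of 179.7 (dry), 292.6 (imbibed) and 431.4 (salt) normalised counts in ΔDS seeds, against 8288, 13978 and 13777 in +WT seeds. The counting of reads from the deleted copy is not described, so effects of the deletion and of less FLOE1 transcript cannot be told apart. Storage protein and oil body transcripts, the check that these were seeds, were detected for 6 of 6 genes in every state.

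The response factors act through a promoter element, here searched as AAACCA followed by 3 free letters (N) and GC. The 300 bases before the annotated start of 9 of the genes, LBD41 left out, were searched on both strands for this longer form and for AAACCA alone, which it contains, in the TAIR10.1 RefSeq genome. The longer form was found before 2 of the 9 genes, before 2 of 52 other genes of the low oxygen response (3.85%) and before 264 of 27443 protein-coding genes (0.962%). The shorter form lay before 3 of the 9, 19 of the 52 (36.5%) and 8727 of all protein-coding genes (31.8%). The 3 windows that hold a match of either form are printed, with each match in capitals, 5′ to 3′ on the strand of the gene. They are chr1:28974955-28975254 on the plus strand for ADH1, chr4:15954804-15955103 on the minus strand for PDC1 and chr4:6374434-6374733 on the plus strand for AT4G10270.
ADH1: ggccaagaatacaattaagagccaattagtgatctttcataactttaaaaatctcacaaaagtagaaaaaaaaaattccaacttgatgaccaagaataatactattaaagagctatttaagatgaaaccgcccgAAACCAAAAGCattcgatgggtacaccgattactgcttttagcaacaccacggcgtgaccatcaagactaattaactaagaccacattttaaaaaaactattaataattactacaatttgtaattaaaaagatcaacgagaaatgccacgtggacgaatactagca
PDC1: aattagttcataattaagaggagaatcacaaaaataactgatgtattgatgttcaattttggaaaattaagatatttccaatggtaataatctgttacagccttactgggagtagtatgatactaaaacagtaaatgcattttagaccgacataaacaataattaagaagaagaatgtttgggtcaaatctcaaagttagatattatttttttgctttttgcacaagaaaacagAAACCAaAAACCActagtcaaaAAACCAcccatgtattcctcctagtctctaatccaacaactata
AT4G10270: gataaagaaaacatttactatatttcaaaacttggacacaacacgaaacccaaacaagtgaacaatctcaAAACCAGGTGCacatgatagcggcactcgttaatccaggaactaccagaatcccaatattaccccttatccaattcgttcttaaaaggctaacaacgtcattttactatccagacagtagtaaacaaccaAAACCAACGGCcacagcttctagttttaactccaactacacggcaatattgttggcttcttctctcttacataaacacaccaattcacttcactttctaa
ADH1 had AAACCAAAAGC from 166 to 156 bases upstream of its start. AT4G10270 held 2 matches, AAACCAGGTGC at 230 to 220 and AAACCAACGGC at 100 to 90 bases upstream, in a window that overlaps the non-coding gene AT4G05775. PDC1 had 3 copies of the short form within the last 66 bases and none of the long form. CACGTG, the G-box bound by several light and abscisic acid factors, lay before ADH1 alone of the 9, 5 of the 52 other genes (9.62%) and 1945 of all protein-coding genes (7.09%). A match is a description of letters and not a shown binding site.

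The genes lie on all 5 chromosomes, and 2 are neighbours. AT4G10265 (chr4:6373008-6373667, minus strand) and AT4G10270 (chr4:6374734-6375210, plus strand) encode wound-responsive family proteins, are single exons of 660 and 477 bases and start towards opposite sides of a gap of 1066 bases. HRA1 (chr3:3096345-3098417, minus strand), a trihelix factor that restrains RAP2.12, is annotated as 1 exon of 2073 bases. LBD41, a LOB domain transcription factor, has 1515 bases of exon. PCO1 (chr5:4898641-4900734) and PCO2 (chr5:15974270-15976270), both on the plus strand, are the low-oxygen-induced plant cysteine oxidases. ADH1 (chr1:28975255-28977417, plus strand) encodes alcohol dehydrogenase and PDC1 (chr4:15952257-15954803, minus strand) pyruvate decarboxylase, the pair that turns pyruvate into ethanol. SUS4 (chr3:15179010-15184105, minus strand) encodes a sucrose synthase, and HB1 (chr2:6982531-6983777, minus strand) a non-symbiotic haemoglobin that scavenges nitric oxide. Strandedness is not given for these libraries. ADH1 overlaps AT1G77122 and AT4G10270 overlaps AT4G10280 on the opposite strand, so reads of these pairs may not be separate. By the authors' deposited table AT4G10280 had mean normalised counts of 38.9 (dry), 137.8 (imbibed) and 150.1 (salt), with log2 fold changes of -0.29, -0.28 and -0.16. AT1G77122 had 197.5, 418.8 and 331.0, with log2 fold changes of -0.088, -0.0044 and -0.093.

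Most of the genes were far higher in imbibed than in dry seeds of both genotypes. Levels are given as normalised CPM, that is, scaled to the summed means of each table. The tables were normalised separately, so levels set across seed states carry no test. For 8 of the 9 genes with counts in dry seeds the imbibed level was higher than the dry level in each genotype, with median ratios of 17.2 in ΔDS and 18.5 in +WT seeds. On a scale set by the median of 10240 genes these medians were 10.9 and 11.7. HB1 had 54.9 CPM in imbibed ΔDS and 66.2 in imbibed +WT seeds, 262 and 242 times its dry levels, which rested on 5.52 and 7.21 normalised counts. AT4G10270 reached 68.0 CPM in imbibed ΔDS and 76.4 in imbibed +WT seeds, 121 and 111 times the dry levels. HRA1 stood at 197.9 and 238.6 CPM in imbibed ΔDS and +WT seeds, 78.0 and 109 times the dry levels. The haemoglobin, one of the wound-responsive proteins and the trihelix factor thus had the highest ratios. PCO1 was 22.1 times its dry level in ΔDS and 24.4 times in +WT seeds. AT4G10265 was at 17.2 and 18.5 times, and LBD41 at 16.4 times in each genotype. PCO2 was 4.95 times its dry level in ΔDS seeds and 6.58 times in +WT seeds, and PDC1 1.91 and 1.79 times (1.20 and 1.13 times on the scale of the median gene), so the second oxidase and the decarboxylase had ratios well under the rest.

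ADH1 ran the other way. Its transcript was abundant in dry seeds, at 742.8 CPM in ΔDS and 886.3 in +WT, and 8.17-fold lower in imbibed than in dry ΔDS seeds and 4.41-fold lower in imbibed than in dry +WT seeds. On the scale of the median gene these were 12.9-fold and 6.98-fold. Per kb of exon, the scale on which genes can be set beside each other, ADH1 had 465.7 CPM per kb in dry ΔDS seeds and 555.7 in dry +WT seeds, while the next gene, LBD41, had 7.71 and 7.91. ADH1 is known to be expressed in maturing seeds as well as under low oxygen. In imbibed seeds the order per kb differed between genotypes only in ADH1's place. ΔDS seeds had AT4G10270 at 142.5, LBD41 at 126.4, PCO1 at 115.6, HRA1 at 95.5, AT4G10265 at 92.5 and ADH1 at 57.0 CPM per kb. +WT seeds had AT4G10270 at 160.1, LBD41 at 129.6, ADH1 at 126.1, PCO1 at 120.7, HRA1 at 115.1 and AT4G10265 at 102.1. HB1, PCO2 and PDC1 followed at 55.5, 21.9 and 13.9 in ΔDS and 66.9, 29.0 and 10.8 in +WT seeds. The SEs of the log2 fold changes of HRA1, LBD41 and AT4G10265 in this state, 0.97 to 1.04, are wider than the steps between these neighbours at the top, so their order among themselves is not set. SUS4 was listed at 0 in dry and salt seeds and had a mean of 1.58 normalised counts in imbibed seeds, and its group means of 2.99 in ΔDS and 0.18 in +WT seeds are below a floor of 3 counts, so no ratio is given.

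**Figure D1:**
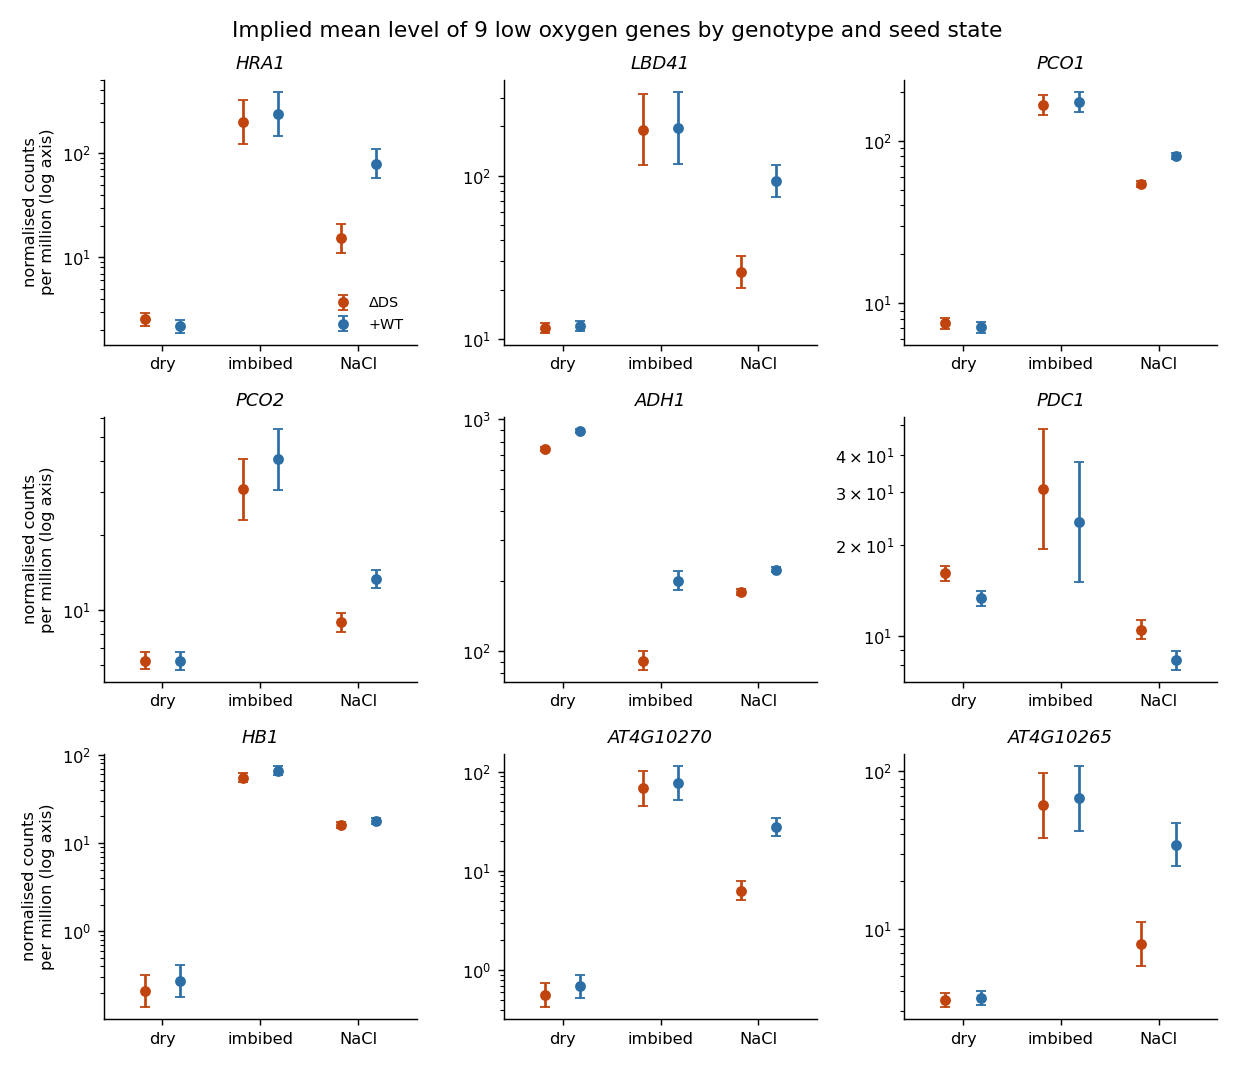
Implied level of 9 of the genes in normalised CPM (log axis) in dry, imbibed and salt seeds, with ΔDS in orange left of +WT in blue. Bars are ± 1 SE of the log2 group mean, taken as the deposited SE divided by the square root of the number of groups compared (2). HRA1 in salt seeds stood at 15.3 CPM in ΔDS and 78.7 in +WT, while its imbibed levels of 197.9 and 238.6 had overlapping bars.

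On salt the genes stood between their dry and imbibed levels, except PDC1 at 0.651 times its dry level in ΔDS and 0.623 times in +WT seeds. Most of the ratios between salt and imbibed seeds were further from 1 in ΔDS than in +WT seeds, and ADH1's is the one for which the test of that difference passed. HRA1 was 12.9-fold lower in salt than in imbibed ΔDS seeds and 3.03-fold lower in salt than in imbibed +WT seeds. LBD41 was lower on salt than in imbibed seeds by 7.44-fold in ΔDS and 2.13-fold in +WT, AT4G10270 by 10.7-fold and 2.77-fold, and AT4G10265 by 7.60-fold and 1.97-fold. HB1 was lower on salt by about the same ratio in each genotype, 3.46-fold in ΔDS and 3.70-fold in +WT, and so were PDC1 (2.93-fold and 2.87-fold) and PCO2 (3.46-fold and 3.05-fold). PCO1 was 3.09-fold lower in ΔDS and 2.15-fold lower in +WT. ADH1 was 1.98-fold higher in salt than in imbibed ΔDS seeds and 1.11-fold higher in +WT. Whether these ratios differ by genotype is the difference of genotype effects, tested further on. Per kb of exon, salt ΔDS seeds had ADH1 at 112.8, PCO1 at 37.4, LBD41 at 17.0, HB1 at 16.1, AT4G10270 at 13.3, AT4G10265 at 12.2 and HRA1 at 7.39 CPM per kb, against 140.5 for ADH1, 56.0 for PCO1, 61.0 for LBD41, 18.1 for HB1, 57.8 for AT4G10270, 51.9 for AT4G10265 and 38.0 for HRA1 in salt +WT seeds. The remaining pair stood lowest in both genotypes, PCO2 at 6.33 and PDC1 at 4.74 in ΔDS seeds and at 9.49 and 3.75 in +WT seeds.

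In dry seeds ADH1 was the one core gene past the threshold, and it was lower in ΔDS seeds. Of the 9 tested genes 1 passed, in the authors' deposited table, an adjusted p of 0.05, where 6.06% of all 16597 tested genes did. ADH1 had implied means of 19586 normalised counts in ΔDS and 23370 in +WT dry seeds. Its log2 fold change in the authors' deposited table was -0.25 ± 0.046 (SE, adjusted p = 3.32e-06). In bulk seeds, fewer cells that express a gene and less RNA per cell cannot be told apart. LBD41 and the oxidases had nearly equal levels. LBD41 stood at 308.0 normalised counts in ΔDS and 315.9 in +WT, PCO1 at 198.1 and 187.9, and PCO2 at 163.8 and 163.4. HRA1 had 66.9 and 57.6, with a log2 fold change of 0.22 ± 0.29 (SE, adjusted p = 0.811) in the authors' deposited table. PDC1 had 425.0 in ΔDS and 351.5 in +WT dry seeds. Its log2 fold change was 0.27 ± 0.12 in the authors' deposited table (adjusted p = 0.191). It did pass in a z test when the fold changes were scaled by library totals (0.35, adjusted p = 0.0401). Here and below that scaling set the summed implied means of both genotypes equal, since true library totals are not given. The wound-responsive pair had 14.8 and 93.3 normalised counts in ΔDS seeds for AT4G10270 and AT4G10265, against 18.1 and 96.1 in +WT. The median log2 fold change of the 9 genes was -0.04, against 0.00 over all tested genes.

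In imbibed seeds ADH1 was again the one gene past the threshold, although far more of the transcriptome differed. ADH1 had 2231 normalised counts in imbibed ΔDS and 4933 in imbibed +WT seeds, 2.21-fold lower, with -1.15 ± 0.19 (SE, adjusted p = 4.56e-08) in the authors' deposited table. That is 1 of 10 tested genes, where 40.8% of 19430 tested genes were called in the authors' deposited table. HRA1 had 4853 normalised counts in ΔDS and 5853 in +WT, LBD41 4696 and 4814, and PCO1 4078 and 4256. PCO2 was at 754.0 in ΔDS and 999.3 in +WT, HB1 at 1347 and 1623, and PDC1 at 753.1 and 584.9. AT4G10270 stood at 1667 in ΔDS and 1873 in +WT, and AT4G10265 at 1497 and 1652. The authors' deposited table put these 8 genes between -0.41 (PCO2) and 0.36 (PDC1) on the log2 scale, and none passed. For HRA1 the 95% interval ran from -2.21 to 1.67 and for LBD41 from -2.07 to 1.99, and the value seen on salt lies within this interval for LBD41 (-1.84) and just outside it for HRA1 (-2.36). PCO1 was measured more closely, from -0.62 to 0.50, and HB1 from -0.75 to 0.21. The median log2 fold change was -0.15, against 0.02 over all tested genes.

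On salt 7 of the 9 tested genes were lower in ΔDS seeds and none was higher, where 14.0% of 18518 tested genes were called and 6.99% were lower in the authors' deposited table. Since the genes were chosen with these values known, nothing is read from that share. HRA1 had 399.7 normalised counts in salt ΔDS and 2053 in salt +WT seeds, 5.14-fold lower. The authors' deposited table gave it -2.36 ± 0.65 (SE, adjusted p = 0.00402). LBD41 had 670.9 in ΔDS and 2409 in +WT, 3.59-fold lower, with -1.84 ± 0.46 and an adjusted p of 9.14e-04 in the authors' deposited table. Both regulators thus stood well below +WT on salt. AT4G10270 had 165.0 normalised counts in ΔDS and 719.5 in +WT, 4.36-fold lower, and the authors' deposited table gave -2.12 ± 0.43 (adjusted p = 2.77e-05). AT4G10265 had 209.6 in ΔDS and 893.0 in +WT, 4.26-fold lower, at -2.09 ± 0.65 in the authors' deposited table (adjusted p = 0.0130). The neighbouring pair had nearly equal fold changes.

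The oxidases differed less. PCO1 had 1404 normalised counts in salt ΔDS and 2101 in salt +WT seeds, and the authors' deposited table gave -0.58 ± 0.090 (adjusted p = 6.11e-09). PCO2 had 231.8 and 347.9, at -0.59 ± 0.17 in the authors' deposited table (adjusted p = 0.00896), and it no longer passed when scaled by library totals (-0.43, adjusted p = 0.0612). ADH1 had 4692 in ΔDS and 5844 in +WT, with -0.32 ± 0.056 (adjusted p = 8.08e-07) in the authors' deposited table. HB1 had 414.2 in ΔDS and 466.0 in +WT, at -0.17 ± 0.15 in the authors' deposited table (adjusted p = 0.558). Its interval of -0.47 to 0.13 overlaps that of PCO1, -0.76 to -0.41, and the genes were not tested against each other. PDC1 had 273.6 in ΔDS and 216.5 in +WT, at 0.34 ± 0.15 in the authors' deposited table (adjusted p = 0.115), and scaled by library totals it was higher in ΔDS (0.50, adjusted p = 0.00573). The decarboxylase and the haemoglobin were thus the 2 genes with no call on salt as deposited. The median log2 fold change of the 9 genes was -0.59, against 0.00 over all tested genes.

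**Figure D2:**
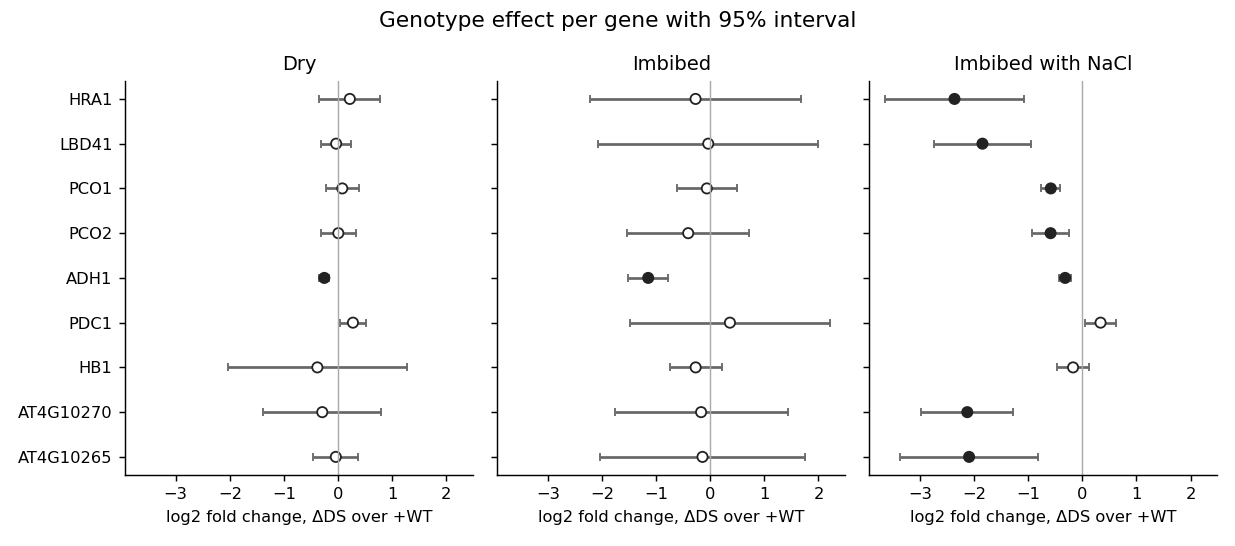
Log2 fold change of ΔDS over +WT for each gene in dry, imbibed and salt seeds, as deposited by the authors, with 95% intervals, where filled points have an adjusted p under 0.05. On salt HRA1 lies at -2.36, AT4G10270 at -2.12 and AT4G10265 at -2.09, while in imbibed seeds the intervals of HRA1 and LBD41 span -2.21 to 1.67 and -2.07 to 1.99.

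The imbibed values of several of these genes were among the least repeatable of the whole table. The SE and the group size give an implied coefficient of variation (CV) between replicates, shared over both genotypes because the authors' DESeq2 fit uses one dispersion per gene. It does not show which library or which genotype varied. In imbibed seeds it was 87.9% for LBD41, 84.2% for HRA1, 82.0% for AT4G10265, 79.6% for PDC1 and 69.2% for AT4G10270. Among imbibed genes whose mean lay within 2-fold of its own, LBD41 had a lower SE than 1 of 1689 genes and HRA1 a lower SE than 2 of 1469. For AT4G10265 7 of 4653, for AT4G10270 8 of 4332 and for PDC1 9 of 6194 such genes had a higher SE. PCO2 was at 48.9%, PCO1 at 24.2%, HB1 at 20.7% and ADH1 at 15.7%. The regulators, the wound-responsive pair and the decarboxylase thus varied several times more than ADH1 in the same libraries.

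Over all 13809 imbibed genes with a mean of at least 100 normalised counts the median CV was 11.8% and the 99th percentile 35.3%. Of the 9 genes in this range 6 lay above that percentile, and 5 were among the 36 genes (0.261%) above 60%. In salt seeds, where the median over 12677 genes was 7.74% and the 99th percentile 18.2%, the regulators and the wound-responsive pair were lower in CV but still high for their level. HRA1 was at 55.4%, with 0 of 4603 genes of like mean above its SE, AT4G10265 at 54.9% (2 of 5497), LBD41 at 38.7% (4 of 4100) and AT4G10270 at 36.4% (9 of 5452). PDC1 on salt was at 10.7%, near the median of 11.0% for genes of like mean, HB1 at 11.9%, PCO2 at 13.6% and PCO1 at 7.22%. In dry seeds LBD41 was at 10.8%, PCO1 at 11.0%, PCO2 at 11.6% and PDC1 at 8.78%, beside a median of 7.73% over 11120 genes, and none of the 5 genes in range lay above the 99th percentile of 16.2%. So 4 of the 5 genes with the largest CV when imbibed were also the most variable of the 9 on salt, and these are the 4 with the largest genotype difference on salt. The means on salt rest on these variable replicates, and a single library's part in them cannot be seen without values per library.

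**Figure D3:**
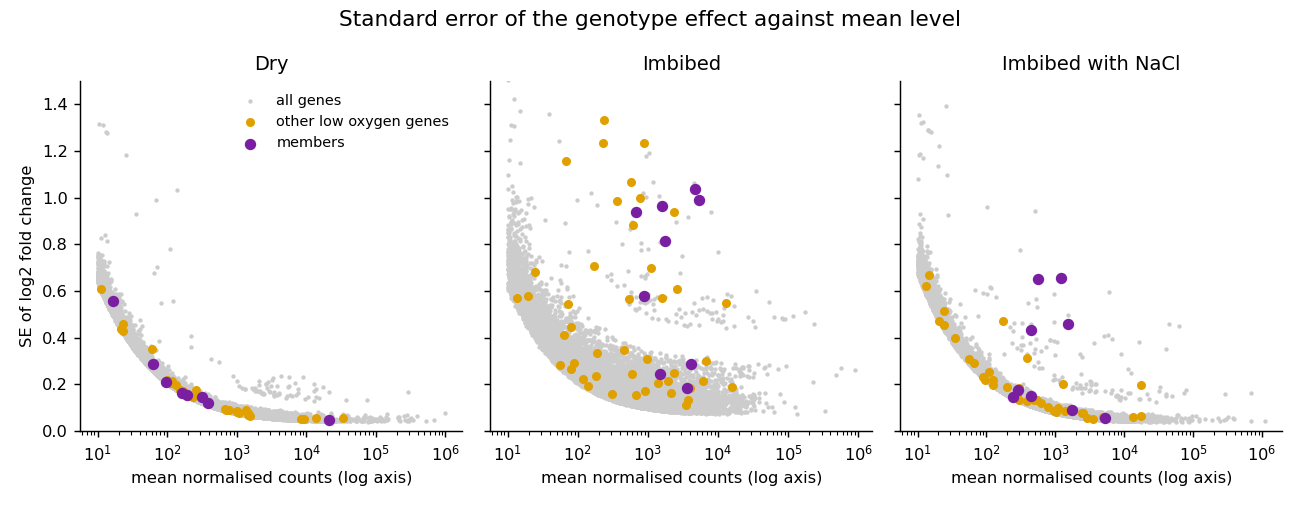
Deposited SE of the log2 fold change against the mean normalised count (log axis) for genes with a mean of at least 10 in each seed state, with all genes in grey, other low oxygen genes in yellow and the core genes in purple, and the vertical axis ending at 1.5. LBD41 at 1.04 and HRA1 at 0.99 lie at the top of the imbibed cloud for their level, and HRA1 at 0.65 does on salt.

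The difference of the genotype effect between states was taken between deposited log2 fold changes and set against their joint SE in an approximate z test, adjusted over all genes. The 3 differences share tables with each other. From dry to imbibed seeds 1 of 9 genes was called, where 25.0% of 16228 genes were. That gene was ADH1, whose log2 fold change was -1.15 in imbibed and -0.25 in dry seeds, a difference of -0.89 ± 0.19 (adjusted p = 1.08e-04). Between salt and imbibed seeds ADH1 was again the one called, at 0.83 ± 0.19 (adjusted p = 0.00228), where 9.16% of 18219 genes were. The ethanol-forming dehydrogenase thus had its widest genotype gap in imbibed seeds. Between salt and dry seeds 4 of 9 were called, where 5.83% of 16281 genes were. HRA1 differed by -2.58 ± 0.71 (adjusted p = 0.00942), LBD41 by -1.81 ± 0.48 (adjusted p = 0.00562), PCO1 by -0.66 ± 0.18 (adjusted p = 0.00766) and AT4G10265 by -2.05 ± 0.68 (adjusted p = 0.0478). The last was lost when scaled by library totals (-1.97, adjusted p = 0.0708).

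Between salt and imbibed seeds these 4 genes were not called, nor was AT4G10270, which was not called against dry seeds either (-1.83, adjusted p = 0.114). HRA1 differed by -2.09 with a 95% interval of -4.42 to 0.24, LBD41 by -1.81 (-4.03 to 0.41), AT4G10265 by -1.95 (-4.23 to 0.33), PCO1 by -0.52 (-1.11 to 0.07) and AT4G10270 by -1.96 (-3.77 to -0.15, adjusted p = 0.161). The SEs are wider here than against dry seeds. That the genotype gap of these 5 genes differs between salt and imbibed seeds was therefore not shown at this precision, and neither was its equality.

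Beyond the 10 genes, other genes that low oxygen induces had more lower than higher calls in both imbibed and salt ΔDS seeds. In imbibed seeds their lower calls were near the share of all genes and their higher calls under it. The list of 52 such genes came from general knowledge of the response and excludes the 10. Like them it was chosen with earlier results of these data known, so its counts are a description and no independent support. In dry seeds 2 were higher and 3 lower of 37 tested, where 2.96% of all genes were higher and 3.1% lower in the authors' deposited table. Of 48 tested in imbibed seeds 3 were higher and 10 lower, where 21.3% were higher and 19.5% lower. On salt 1 was higher and 12 lower of 46, where 6.98% were higher and 6.99% lower. The medians were -0.03 (dry), -0.06 (imbibed) and -0.40 (salt), against 0.00, 0.02 and 0.00 over all tested genes. The list was measured less closely in imbibed seeds. Its median SE was 0.43 there and 0.20 on salt, against 0.18 and 0.14 over all tested genes. There were 6 genes lower in both imbibed and salt seeds, 60% of the imbibed and 50% of the salt calls. They were AT1G19530, AT1G33055, AT3G03270, AT4G27450, AT4G39675 and PDC2. The same overlap over all genes was not computed, so nothing is read from these shares. AT1G19530, of unassigned function, had 2634 normalised counts in imbibed ΔDS and 10945 in imbibed +WT seeds, with -2.05 ± 0.30 (adjusted p = 8.29e-10) in the authors' deposited table, and -0.66 ± 0.066 on salt (adjusted p = 6.20e-21). AT3G03270, the universal stress protein HRU1, had 314.8 in salt ΔDS and 648.4 in salt +WT seeds. By the authors' deposited table its log2 fold change was 0.40 ± 0.079 in dry seeds (adjusted p = 3.94e-05), -0.56 ± 0.21 in imbibed seeds (adjusted p = 0.0187) and -1.04 ± 0.13 on salt (adjusted p = 4.03e-13), so HRU1 was higher in dry ΔDS seeds and lower after imbibition. AT1G33055 was at -0.92 ± 0.095 on salt in the authors' deposited table (adjusted p = 5.58e-20), and AT4G27450 at -0.46 ± 0.060 (adjusted p = 1.31e-12). ACO1, which makes ethylene, went the other way, with 1437 normalised counts in imbibed ΔDS and 536.0 in imbibed +WT seeds and 1.42 ± 0.31 (adjusted p = 5.05e-05) in the authors' deposited table. With fold changes rescaled to library totals, 11 of the 13 imbibed calls stayed, AT1G33055 and AT3G03270 being lost, and 11 of the 13 salt calls stayed, PDC2 and SRO5 being lost, and none of the called genes turned its sign. With the calls gained, all of them higher, that scaling gave 5 higher and 8 lower in imbibed and 4 higher and 10 lower in salt seeds. Over all genes it called 8226 of 19430 tested in imbibed and 4182 of 18518 in salt seeds. Of these calls 77.2% and 89.8% were higher.

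**Figure D4:**
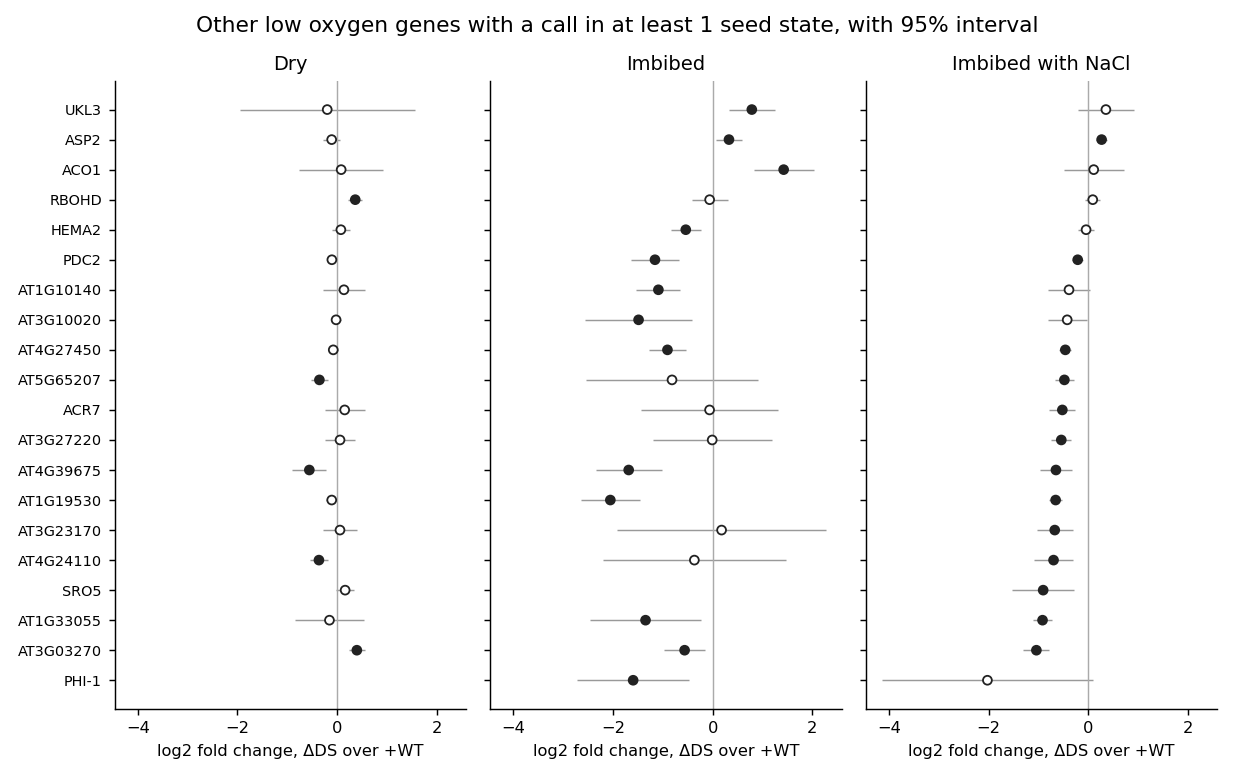
Log2 fold change of ΔDS over +WT, as deposited by the authors, with 95% intervals, for the 20 other low oxygen genes called in at least 1 seed state. AT1G19530 lies at -2.05 in imbibed and -0.66 in salt seeds, and ACO1 at 1.42 in imbibed seeds.

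The oxygen sensing machinery itself had RAP2.3, ACBP1 and ACBP2 lower in ΔDS seeds of every state as deposited, but not in every state when scaled by library totals. The list held 16 genes of the response factors, oxidases and N-degron pathway. In dry seeds 1 was higher and 3 lower of 16 tested, where 2.96% of all tested genes were higher and 3.1% lower. In imbibed seeds 0 were higher and 5 lower of 15, where 21.3% were higher and 19.5% lower. On salt 1 was higher and 3 lower of 15, where 6.98% were higher and 6.99% lower. Over both directions 6.06%, 40.8% and 14.0% of all tested genes were called in dry, imbibed and salt seeds. RAP2.3 (AT3G16770, named EBP in the reference), a group VII factor, had 4531 normalised counts in imbibed ΔDS and 9750 in imbibed +WT seeds. The authors' deposited table put it at -0.17 ± 0.046 in dry (adjusted p = 0.00892), -1.11 ± 0.21 in imbibed (adjusted p = 2.71e-06) and -0.46 ± 0.054 in salt seeds (adjusted p = 6.15e-15). RAP2.12, the main activator of the core genes, was at -0.25 ± 0.093 in imbibed and 0.15 ± 0.044 in salt seeds in the authors' deposited table, both past the threshold, and RAP2.2 was higher in dry ΔDS seeds at 0.21 ± 0.058. ACBP1 and ACBP2, the membrane proteins that hold RAP2.12, were lower in every state, from -0.69 ± 0.19 for ACBP2 in imbibed to -0.18 ± 0.053 in dry seeds in the authors' deposited table. After scaling by library totals, of these calls RAP2.3 in imbibed and salt, ACBP2 in imbibed, RAP2.12 in salt and RAP2.2 in dry seeds stayed. With the calls gained, the list then had 1 higher and 0 lower in dry seeds and 2 higher and 2 lower in imbibed seeds. Over all genes 82.9% of 1450 calls in dry and 77.2% of 8226 in imbibed seeds were then higher. On salt the list had 4 higher, RAP2.2 and BIG among them, and 1 lower, where 89.8% of all 4182 calls were higher. PCO3 (AT1G18490), PCO4 (AT2G42670), PCO5 (AT3G58670), the recognition ligase PRT6, the arginyl transferases ATE1 and ATE2, VRN2 and the induced factors HRE1 and HRE2 passed in no state in the authors' deposited tables, and after that scaling PCO4 and VRN2 passed in imbibed and PCO5 in salt seeds.

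Among other fermentation and sucrose genes, 0 were called of 12 tested in dry seeds, where 6.06% of all genes were. In imbibed seeds 0 were higher and 5 lower of 12, where 21.3% of all genes were higher and 19.5% lower. On salt 0 were higher and 2 lower of 12, where 6.98% were higher and 6.99% lower. Over both directions these shares were near the 40.8% of all genes called in imbibed and 14.0% in salt seeds. PDC2, the second pyruvate decarboxylase, had 1481 normalised counts in imbibed ΔDS and 3307 in imbibed +WT seeds. Its log2 fold change in the authors' deposited table was -1.16 ± 0.25 (adjusted p = 3.70e-05), beside the uncalled 0.36 of PDC1. SUS3, a sucrose synthase of maturing seeds, had 3603 in ΔDS and 7221 in +WT, and was lower in the authors' deposited table (adjusted p = 6.64e-05). On salt the authors' deposited table gave -0.21 ± 0.059 for PDC2 and -0.27 ± 0.046 for SUS3, and neither passed there when scaled by library totals. That scaling gave this list 2 higher and 0 lower in dry seeds and 1 higher and 3 lower in imbibed seeds. On salt it gave 2 higher, AlaAT1 and ALAAT2, and 0 lower. Over all genes it gave 1450, 8226 and 4182 calls in dry, imbibed and salt seeds, of which 82.9%, 77.2% and 89.8% were higher. PDC1 shares 33 words of 31 bases with AT5G01320 and 16 with AT5G01330, so some reads may be shared between these decarboxylases. Both had few counts. Mean normalised counts in dry, imbibed and salt seeds were 0.30, 0.30 and 0.81 for AT5G01320 and 0.84, 0.96 and 1.65 for AT5G01330. For PDC1 they were 388.2, 669.0 and 245.1.

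Family relatives of the 10 genes were called in both directions. Of 11, 0 of 5 tested were called in dry seeds, where 6.06% of all genes were. In imbibed seeds 5 were higher and 3 lower of 10, where 21.3% of all genes were higher and 19.5% lower. On salt 2 were higher and 1 lower of 7, where 6.98% were higher and 6.99% lower. Over both directions 40.8% of all genes were called in imbibed and 14.0% in salt seeds. HB2, the other class of haemoglobin, had 2249 normalised counts in imbibed ΔDS and 1481 in imbibed +WT seeds. The authors' deposited table gave 0.60 ± 0.15 in imbibed and 0.62 ± 0.13 in salt seeds for HB2, where HB1 had -0.27 ± 0.25 and -0.17 ± 0.15 and was not called. GLB3, a truncated haemoglobin, was at 1.24 ± 0.26 in imbibed seeds in the authors' deposited table. LBD40, a class II relative of LBD41, had 4419 in imbibed ΔDS and 7666 in imbibed +WT seeds, at -0.79 ± 0.22 in the authors' deposited table (adjusted p = 0.00197). LBD42, LBD37 and LBD38 were higher, at 1.94 ± 0.34, 1.37 ± 0.24 and 1.73 ± 0.48. AT4G05070, a wound-responsive family gene like the neighbouring pair, was at -1.55 ± 0.57 in imbibed and -0.59 ± 0.19 in salt seeds in the authors' deposited table.

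Markers of seed tissues also differed between the genotypes, and their part in the values above was not tested. The summed level of 6 storage and oil body genes was 29830 CPM in dry ΔDS and 35285 in dry +WT seeds, 40284 and 95019 in imbibed seeds and 73431 and 94355 on salt, with 5, 6 and 5 of 6 lower in ΔDS, where 3.1%, 19.5% and 6.99% of all tested genes were. The 7 embryo genes summed to 86.2 CPM in dry ΔDS and 84.3 in dry +WT seeds and to 90.5 and 92.5 on salt, with none called in either state, and to 291.4 and 178.4 in imbibed seeds, with 4 of 6 tested higher, where 21.3% of all tested genes were. The 3 endosperm genes summed to 33070 CPM in dry ΔDS and 42200 in dry +WT seeds, 12491 and 27221 in imbibed seeds, and 22333 and 31231 on salt. EPR1 was lower in every state, on salt only as deposited and not when scaled by library totals, and MAN7 higher in imbibed and salt ΔDS seeds. The 8 seed coat genes summed to 3.10 CPM in dry ΔDS and 3.64 in dry +WT seeds, 10.2 and 6.86 in imbibed seeds, and 2.52 and 2.61 on salt, and TT2 and TT10 were at 0 in all tables. Of 3 seed coat genes tested in imbibed seeds 2 were higher, TTG2 and GL2, where 21.3% of all tested genes were. Both had few counts, with means of 52.7 and 85.2. None was called of 2 tested in dry and 4 tested in salt seeds. Scaled by library totals, 4, 6 and 4 of the 6 storage genes were lower in dry, imbibed and salt ΔDS seeds. In imbibed seeds 6 of 6 tested embryo genes were then higher. That scaling called 1450 of 16597, 8226 of 19430 and 4182 of 18518 tested genes in dry, imbibed and salt seeds. Of these calls 82.9%, 77.2% and 89.8% were higher, so nothing is read from the rescaled counts.

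The median profile of the core genes over the 6 group means was low in dry, high in imbibed and between on salt. LBD41 lay closest to it (root mean square distance of 0.14 on the log2 scale), then AT4G10265 (0.17), PCO1 (0.45), PCO2 (0.79), HRA1 (1.03), AT4G10270 (1.19), PDC1 (1.57), HB1 (1.86) and ADH1 (2.81). Of 10487 genes with at least 100 normalised counts in every table and outside the lists, the nearest were AT2G17150 at 0.43, the mitochondrial channel gene VDAC4 at 0.47, AT1G32090 at 0.49, the nitrite reductase gene NIR1 at 0.50 and the apical hook regulator HLS1 at 0.51. Their Pearson r over the same 6 points was 0.96 to 0.98, a description over points that share libraries. Their CV in imbibed seeds was 8.70%, 11.8%, 10.9%, 9.09% and 13.2%, near the median of all genes. The core genes ran from 15.7% for ADH1 to 87.9% for LBD41, the gene closest to the median profile. None of the 5 had a salt log2 fold change beyond -0.33 in the authors' deposited table, against -1.84 for LBD41. Nor did HB1 (-0.17), ADH1 (-0.32) and PDC1 (0.34) among the core genes.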

How the data were processed

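RNA-seq libraries were made from dry, imbibed and salt seeds of 2 genotypes, with 3 replicates per group. Per the submitters' processing notes, HISAT2 and DESeq2 were used with genome build TAIR10, without versions. The read counter and the strandedness are not given, and either could change values where genes overlap. Per the file headers, the deposited tables hold the mean over libraries of normalised counts (a signal column of counts over size factors), the unshrunk log2 fold change and its SE as deposited by the authors, the Wald statistic (a score deposited by the authors), and the p-value and adjusted p-value deposited by the authors. Values per library were not analysed here, so the count test planned was replaced by the authors' deposited adjusted p at 0.05, with no refit.

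Implied group means follow from each deposited mean with its fold change at 3 libraries a side, and are approximate. The CV was computed from the SE after removing counting noise. Differences between states were tested with an approximate z test and Benjamini-Hochberg adjustment. All steps ran in Python 3.11.15 with numpy 2.4.6, pandas 2.3.3, scipy 1.17.1, statsmodels 0.14.6 and matplotlib 3.10.9. Of these steps the z test with its adjustment was tested on simulated data with 200 changed genes, and the CV formula on set values. Of 33602 identifiers 32835 matched a TAIR10.1 locus, which gave names, exon lengths and upstream windows of 300 bases, of which that of LBD41 is not reported here.

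The 10 genes, the lists and the marker lists were chosen with earlier results of these data known. Named genes beside them were up to 4 per list and state with the smallest adjusted p, 2 per list with the largest difference between states, and the 5 nearest profiles; a few list members and genes with a high spread were named after their values were seen. Alternatives were scaling by library totals, a lowess correction for exon length (span 0.3), median gene centring, adjustment over all genes with a p, and a mean of at least 5 CPM. No read total per library entered the first of these, which set the summed implied means of both genotypes equal. Sequences of proteins were not used here.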

Additional observations from a re-analysis of the deposited data

Results flagged for a closer look

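Tests of the difference between seed states picked out 6 values among the core genes, computed as the deposited log2 fold change of ΔDS over +WT in the first state minus that in the second. ADH1 had -0.8903 for imbibed minus dry and 0.8282 for salt minus imbibed, so its genotype gap was widest in imbibed seeds. For salt minus dry, HRA1 had -2.577, LBD41 -1.808, PCO1 -0.658 and AT4G10265 -2.048, all more negative on salt. The genes were chosen with these comparisons known, so the 6 values are no independent evidence, and they share tables with each other. No single library could be examined, because the tables hold none.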

How the results depend on the processing

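Of 57 alternative values of the main counts and median level ratios 52 were graded as the same, which for counts means within 1.5 times. Among those graded the same, the median ratio of imbibed over dry levels went from 17.9 to 11.3 on the scale of the median gene. Of 208 values for single core genes 194 kept their direction and side of the threshold. No called core gene turned its sign. The sign turned in 10 values with no call. Scaling by library totals did so in dry seeds for LBD41 (0.0424) and AT4G10265 (0.0362), in imbibed seeds for LBD41 (0.15), PCO1 (0.12), AT4G10270 (0.0175) and AT4G10265 (0.0434), and in the differences of AT4G10265 for imbibed minus dry (0.0071) and of ADH1 for salt minus dry (0.0173). Removing the exon length trend gave 0.0683 for AT4G10265 in dry seeds, and centring on the median gene gave -0.0139 for LBD41 in imbibed minus dry. Scaling by library totals gave 2 core genes called in dry seeds, with PDC1 added, and 5 other low oxygen genes higher in imbibed and 4 higher in salt seeds. With the exon length trend removed 1 other low oxygen gene was lower in dry seeds. With a mean of at least 5 CPM required in both tables, the count of core genes that differed between salt and dry seeds was 2, since genes scarce in dry seeds were not tested. Scaling by library totals gave 82.9%, 77.2% and 89.8% higher calls among all genes in dry, imbibed and salt seeds, against 48.9%, 52.1% and 50.0% as deposited. It shifted log2 fold changes by 0.08, 0.19 and 0.16. No paired analysis was possible because the deposited tables give no values per library, and for the same reason leaving out replicates, other size factors and edgeR were not run. Depth limits HB1, AT4G10270 and HRA1 in dry seeds, with fewer than 70 normalised counts, and SUS4 in every state.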

Other observations

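Of the 36 genes in imbibed seeds with an implied CV above 60% and a mean of at least 100 normalised counts, 5 were core genes and 8 were on the list of other low oxygen genes. Those on the list were CML38 (113%), SRO5 (104.8%), AT5G26200 (104.6%), AT3G23170 (90.5%), AT3G13310 (84.8%), AT5G66985 (83.5%), AT4G24110 (79.5%) and AT5G65207 (74.7%). Named after their values were seen, without a list or a test, some of the other 23 were HSFA2 at 90.1%, BAG6 at 90.6%, MBF1C at 85.5%, HSP90.1 at 79.6% and HSP101 at 65.2%. On salt 3 genes and in dry seeds 2 genes were above 60%, and none of these was a low oxygen gene. SRO5 was the one gene in the imbibed table with a fold change but no p, a form in which DESeq2 reports a gene with a count it takes for an outlier.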
